A study of Mus musculus with 6 samples.

Results

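The liver plasma protein transcripts are 9 genes of the deposited table of 13226 genes: Alb, Ttr, Apoa1, Apoa2, Apoh, Fga, Fgb, Fgg and Ahsg. They were selected by symbol, and they were selected on measured values, because their counts stood far above those of the other muscles in the control muscle numbered 3. That excess is therefore given below as a description, with no test. All 9 symbols were found in the table. The samples were whole tibialis anterior (TA) muscles of male C57BL/6 mice aged 8 weeks, excised 7 days after an intramuscular injection. In the Yap-shRNA group (n = 3 muscles) the injected vector was AAV6:Yap-shRNA, an adeno-associated virus that carries a short hairpin RNA against Yap into muscle fibres and was built in a plasmid with the CMV promoter and eGFP. In the control group (n = 3 muscles) the titles name an empty vector and the vector field names AAV6:LacZ-shRNA, so these muscles are called control here. Control and treated muscles came from opposite legs of 3 animals, but the labels do not state that a replicate number stands for an animal. Every muscle of the series therefore received an AAV6 vector, and none was left without injection.

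Plasma proteins such as these are made and secreted mainly by hepatocytes, the parenchymal cells of the liver, and reach other tissues through the blood as proteins rather than as RNA. Alb and Ttr encode carriers, Apoa1 and Apoa2 encode the main proteins of high-density lipoprotein, Apoh encodes a phospholipid-binding glycoprotein, Fga, Fgb and Fgg encode the chains of the clotting protein fibrinogen, and Ahsg encodes fetuin-A, an inhibitor of mineral deposition. In hepatocytes their promoters are known to be bound by liver-enriched transcription factors, among them HNF1, HNF4A, C/EBP and FOXA. Skeletal muscle fibres are not a recognised source of these proteins, although Apoa1 is also made in the intestine and Ttr in the choroid plexus.

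The promoters of the members, which the selection did not use, were searched for letters that such factors are known to bind, and are shown for that reason. RefSeq promoters on GRCm38.p6 were found for 8 of the 9 members, all but Ttr, and the 150 bases before each RefSeq start were read on both strands. The RefSeq starts differ by 0 to 62 bases from the GENCODE starts of the principal transcripts, and they lie upstream of these by 27 bases in Alb, 28 in Apoa2 and 22 in Ahsg, whose windows thus leave out the last bases before the GENCODE start, while in Fgb both starts are the same. Of these windows, the 4 that hold at least 1 match and overlap no annotated exon are printed, 5′ to 3′ on the strand of the gene. Capitals mark the matches, which may be written as the reverse complement of the letters searched. The Alb window is chr5:90460720-90460869 on the plus strand, that of Apoa2 is chr1:171224904-171225053 on the plus strand, that of Fgb is chr3:83049864-83050013 on the minus strand, and that of Ahsg is chr16:22891865-22892014 on the plus strand.
Alb: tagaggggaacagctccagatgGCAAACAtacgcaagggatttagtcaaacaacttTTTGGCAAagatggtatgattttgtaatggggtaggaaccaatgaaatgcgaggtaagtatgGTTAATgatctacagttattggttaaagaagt
Apoa2: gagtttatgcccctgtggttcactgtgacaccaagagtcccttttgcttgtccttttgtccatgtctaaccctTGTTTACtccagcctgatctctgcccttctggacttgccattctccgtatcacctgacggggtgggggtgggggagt
Fgb: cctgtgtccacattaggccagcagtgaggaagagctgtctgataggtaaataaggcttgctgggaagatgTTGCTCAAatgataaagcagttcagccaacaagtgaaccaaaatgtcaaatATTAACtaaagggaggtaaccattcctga
Ahsg: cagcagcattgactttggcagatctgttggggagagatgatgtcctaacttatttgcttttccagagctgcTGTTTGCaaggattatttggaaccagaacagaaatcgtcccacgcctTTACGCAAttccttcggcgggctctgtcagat

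The letters GTTAAT, an arm of the HNF1 site, stood in the windows of 3 of the 8 members (Alb, Fga and Fgb), against 3.71% of all 32851 RefSeq promoters. Counted from the RefSeq start, it lay 32 to 27 bases before it in Alb and 29 to 24 bases before it in Fgb, but these starts were not set alike against GENCODE, so the positions are not comparable between the genes. The C/EBP letters TTGCNNAA were found in 4 of 8 members (Alb, Fga, Fgb and Ahsg), against 5.46% of all promoters. The matched letters differed between them, with TTTGGCAA in Alb, TTGCTCAA in Fgb and TTACGCAA in Ahsg. The FOXA letters TGTTTAC were found in 2 of 8 (Apoa2 and Apoh), against 1.80% of all promoters, and the variant TGTTTGC in 3 of 8 (Alb, Apoa1 and Ahsg), against 2.44%. The letters CAAAGTCCA and AGGTCAAAG for HNF4A were found in none of the 8 windows, against 0.271% and 0.213% of all promoters, and TATAAA in none, against 7.57%, which covers these windows only. The motifs share no letters in these windows, and a match is a description of the letters, not of binding. Binding was not measured in these muscles.

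The libraries held 11987167 to 12710393 counts. Yap1, the targeted gene, had 781 to 915 counts in the control muscles and 311 to 495 in the Yap-shRNA muscles, so the libraries went with their labels. A list of 10 skeletal muscle genes, which includes Acta1, Ckm and Myh4, was found whole in the table and summed to 158140 to 188068 CPM (counts scaled by TMM to a common library size) in each library, as the tissue label states. No pair of libraries was a repeat, since the least different pair, control 3 and Yap-shRNA 1, had a chi-square over genes of 7.14 per degree of freedom, where sampling noise alone gives about 1. In whole muscle RNA, fewer cells of a type and less RNA per cell cannot be told apart.

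Alb was the most abundant member, and Ttr, the other carrier, stood below Alb, Apoa1, Apoa2 and Ahsg in control 3 by CPM. Alb (ENSMUSG00000029368, chr5:90460897-90476602 of GRCm38, plus strand, 15 exons) encodes albumin, the most abundant protein of plasma, which carries fatty acids. Its counts in the order of the replicate numbers, kept below, were 7, 301 and 2909 in control muscles against 93, 262 and 4 after Yap-shRNA. In CPM these were 0.545, 25.2 and 238.7 in control and 7.80, 20.1 and 0.319 in Yap-shRNA muscles. Control 3 was high, control 2 and Yap-shRNA 2 were intermediate, Yap-shRNA 1 was lower, and control 1 and Yap-shRNA 3 were close to 0, so the low muscles of both groups lay side by side. The Alb promoter printed above is the one with the most matches of those shown. Ttr (ENSMUSG00000061808, 4 exons) encodes transthyretin, which carries thyroxine. Its counts were 1, 49 and 425 in control and 19, 57 and 0 in Yap-shRNA muscles, or 0.0778, 4.10 and 34.9 CPM against 1.59, 4.38 and 0 CPM. For Ttr the intermediate muscles stood in the other order, with Yap-shRNA 2 a little above control 2, and the exact interval of their ratio (0.936, 95% interval 0.626 to 1.40) included 1.

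**Figure D1:**
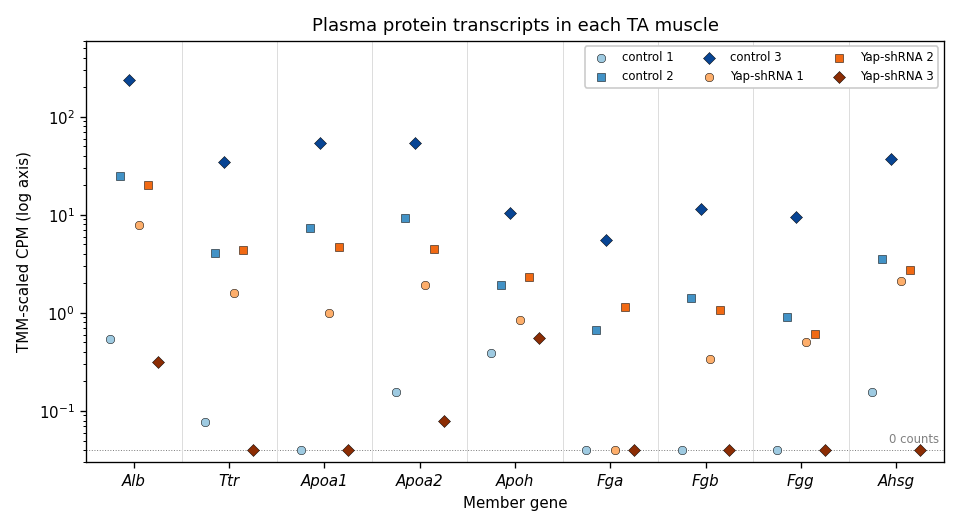
TMM-scaled CPM (log axis) of the 9 members in each of the 6 TA muscles, 1 point per muscle, with libraries at 0 counts placed on the dotted line. Control 3 is the highest point for all 9 genes, and control 1 and Yap-shRNA 3 are the lowest or tie for it.

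Among the apolipoproteins, Apoa1 and Apoa2 ran close to each other and Apoh did not. Apoa1 (ENSMUSG00000032083, chr9:46228580-46230466, plus strand, 4 exons), the main protein of high-density lipoprotein, had 0, 87 and 659 counts in the control group and 12, 61 and 0 in Yap-shRNA muscles. Its CPM were 0, 7.27 and 54.1 in control and 1.01, 4.68 and 0 in Yap-shRNA muscles. Apoa2 (ENSMUSG00000005681, chr1:171225054-171226379, plus strand, 4 exons), the second protein of the same particle, had 2, 111 and 660 counts in control and 23, 58 and 1 in Yap-shRNA muscles. Both genes followed the order of Alb over the muscles, and in control 3 their levels were nearly equal at 54.1 and 54.2 CPM. Per kilobase of exon they were not, since Apoa2 is the shorter gene, with 100.8 CPM per kilobase against 43.7 for Apoa1. Apoh (ENSMUSG00000000049, chr11:108343354-108414396, plus strand, 8 exons) encodes beta-2-glycoprotein I, which binds anionic phospholipids. It had 5, 23 and 128 counts in control and 10, 30 and 7 in Yap-shRNA muscles. Apoh was thus the member with the flattest profile, at 0.389 CPM in control 1, below Alb alone (0.545 CPM), at 0.558 CPM in Yap-shRNA 3, above every other member, and at 10.5 CPM in control 3. Its annotated span overlaps Prkca and Gm11656 and the strand setting of the counting is not given, so reads of these genes cannot be told apart here.

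The genes of the fibrinogen chains lie next to each other on chromosome 3 and had the lowest levels of the members in control 3 per kilobase of exon. Fga (ENSMUSG00000028001, chr3:83026076-83033627, plus strand, 6 exons), the alpha chain, had 0, 8 and 68 counts in control and 0, 15 and 0 in Yap-shRNA muscles. Fgb (ENSMUSG00000033831, chr3:83040141-83049863, minus strand, 8 exons), the beta chain, had 0, 17 and 139 counts in control and 4, 14 and 0 in Yap-shRNA muscles. Fgg (ENSMUSG00000033860, chr3:83007724-83015049, plus strand, 10 exons, overlapped by Gm30097), the gamma chain, had 0, 11 and 117 counts in control and 6, 8 and 0 in Yap-shRNA muscles. Control 3 was the sole muscle with more than 17 counts of any chain. A count of 0 allows up to 3 counts at this depth, so the chains were not detectable in control 1 and Yap-shRNA 3 rather than shown to be absent. In control 3, where all chains were counted, they stood at 5.58, 11.4 and 9.60 CPM, or 1.85, 2.99 and 4.59 CPM per kilobase of exon for Fga, Fgb and Fgg. The order of the chains thus depends on the scale, with Fgb first by CPM and Fgg first per kilobase, and Fga last on both.

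Ahsg (ENSMUSG00000022868, chr16:22891277-22899449, plus strand, 7 exons, overlapped by Gm30505), which encodes fetuin-A, had 2, 42 and 455 counts in control and 25, 36 and 0 in Yap-shRNA muscles. Its CPM were 0.156, 3.51 and 37.3 in control and 2.10, 2.76 and 0 in Yap-shRNA muscles. Here Yap-shRNA 1 stood close to the intermediate muscles instead of well below them, at 2.10 against 2.76 CPM in Yap-shRNA 2. Per kilobase of exon, the levels in control 3 ran from 101.9 CPM for Alb and 100.8 for Apoa2 through 43.7 for Apoa1, 29.4 for Ttr, 17.0 for Ahsg and 6.59 for Apoh to the fibrinogen chains.

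Summed over the 9 members, the counts were 17, 649 and 5560 in the control group and 192, 541 and 12 in the Yap-shRNA group. In CPM, with exact binomial 95% intervals that cover counting error only, these were 1.32 (0.771 to 2.12), 54.3 (50.2 to 58.6) and 456.2 (444.3 to 468.4) in control. In Yap-shRNA muscles they were 16.1 (13.9 to 18.6), 41.5 (38.1 to 45.2) and 0.957 (0.494 to 1.67). Control 1 and Yap-shRNA 3 could not be told apart beyond counting error, since their intervals overlap, and each of the other steps lay outside the intervals of its neighbours. Control 3 held 8.41 times the summed level of control 2, 11.0 times that of Yap-shRNA 2, 28.3 times that of Yap-shRNA 1, 345 times that of control 1 and 477 times that of Yap-shRNA 3. Within the control group alone the sum thus ran from 1.32 to 456.2 CPM. All 9 members were highest in control 3, which is what they were selected for, and 13.4% of all genes were highest there. For single members, 63.1% (Apoh) to 82.4% (Fgg) of all counts over the 6 libraries came from control 3. On a log2 scale with a prior count of 2, the excess of control 3 over the mean of the other 5 muscles was 5.81 for Alb and 5.74 for Apoa1, ranks 1 and 2 of 13226 genes, and it was smallest for Apoh, at 3.21 and rank 71. The rule has no threshold. Orm1 was the gene that followed Apoh in this ranking.

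The order of the other 5 muscles was not used to select the members, but it was noticed in these data and is given as a description. Control 2 and Yap-shRNA 2 were both above Yap-shRNA 1, and Yap-shRNA 1 was above both control 1 and Yap-shRNA 3, in 8 of the 9 members, against 6.58% of all genes. The exception was Fga, with 0 counts in control 1, Yap-shRNA 1 and Yap-shRNA 3. Fgb and Fgg, among the 8, had 35 and 25 counts over these 5 muscles and reached the table only through control 3. All 6 members with at least 50 counts over these 5 muscles had the order, against 836 of the 13140 genes that met this minimum. This order runs across the groups, since each group has 1 intermediate muscle and 1 muscle near 0. Of the 9 members, 4 were at 0 counts in control 1, 6 in Yap-shRNA 3, 1 in Yap-shRNA 1 and none in control 2 or Yap-shRNA 2.

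The make-up of the summed members was compared between libraries, with exact binomial 95% intervals for counting error. Alb took 52.3% (51.0 to 53.6) of the members' counts in control 3, 46.4% (42.5 to 50.3) in control 2, 48.4% (44.1 to 52.7) in Yap-shRNA 2 and 48.4% (41.2 to 55.7) in Yap-shRNA 1. The interval of control 2 lay below that of control 3, while those of the Yap-shRNA muscles overlapped it. Apoa2 took 17.1% (14.3 to 20.2) in control 2 against 11.9% (11.0 to 12.8) in control 3, and these intervals do not overlap. Apoh took 2.30% (1.92 to 2.73) in control 3 and 5.55% (3.77 to 7.82) in Yap-shRNA 2. In the muscles with few counts it took far more, at 29.4% (10.3 to 56.0) of 17 counts in control 1 and 58.3% (27.7 to 84.8) of 12 counts in Yap-shRNA 3, both intervals above that of control 3. The mixture of members was therefore similar but not the same in the muscles that had them, and in control 1 and Yap-shRNA 3 Apoh stood apart from the rest. Overlap with Prkca or Gm11656 was not tested as a source of these Apoh counts.

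**Figure D2:**
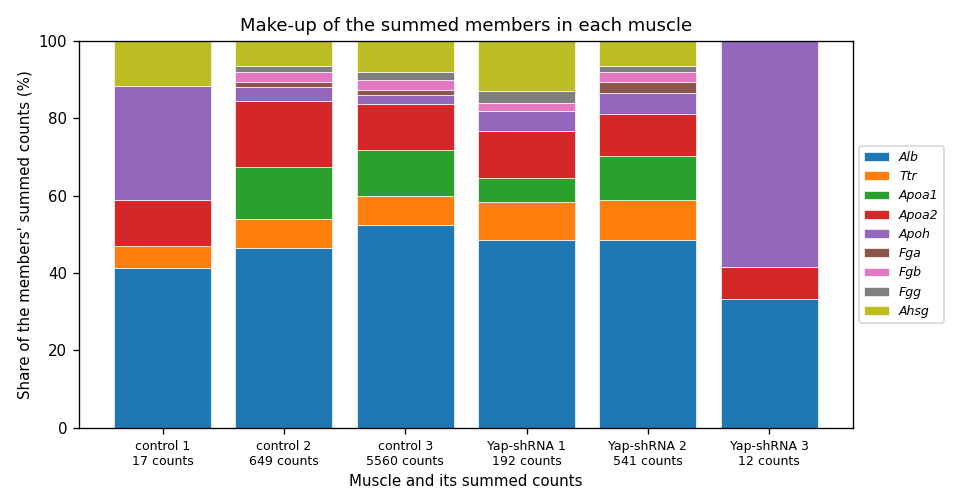
Share of each member in the members' summed counts (%), 1 bar per TA muscle with its summed counts under the bar. Alb takes 46.4 to 52.3% where at least 192 counts were summed, and Apoh takes 58.3% of the 12 counts of Yap-shRNA 3.

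The ratio of control 3 to the next muscles was set beside the summed ratio for each member. Against control 2, Alb had a ratio of 9.49 (exact 95% interval 8.42 to 10.7) and Apoa2 a ratio of 5.84 (4.77 to 7.20), the former just above and the latter below the summed ratio of 8.41. The other members had ratios from 5.46 (Apoh) to 10.6 (Ahsg), with intervals that include the summed ratio. Against Yap-shRNA 2, for which the summed ratio was 11.0, Apoh at 4.56 (3.04 to 7.03), Fga at 4.85 (2.74 to 9.13) and Ttr at 7.97 (6.03 to 10.7) lay below it, and Alb at 11.9 (10.5 to 13.5) included it. Against Yap-shRNA 1, with a summed ratio of 28.3, Apoa1 lay above at 53.7 (30.5 to 104.5), and Apoh at 12.5 (6.59 to 26.7) and Ahsg at 17.8 (11.9 to 27.8) lay below. Between the intermediate muscles themselves, control 2 over Yap-shRNA 2 was 1.31 (1.16 to 1.47) for the sum, and Apoa2 alone had an interval above it, at 2.08 (1.50 to 2.92). Apoh thus had the lowest ratio of the members against each of these 3 muscles, where Fga, at 0 counts in Yap-shRNA 1, has no ratio. The summed ratio has an interval of its own, 7.75 to 9.13 against control 2 and 10.05 to 12.0 against Yap-shRNA 2. Against Yap-shRNA 1 it is 24.5 to 32.9. The intervals of Alb against control 2, of Ttr against Yap-shRNA 2 and of Apoa1, Apoh and Ahsg against Yap-shRNA 1 overlap it. Each member is also part of the sum, Alb the largest part. Control 3 is the muscle that chose the members, so its ratios are descriptions, and the intervals cover counting error in these libraries and not the spread between animals.

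**Figure D3:**
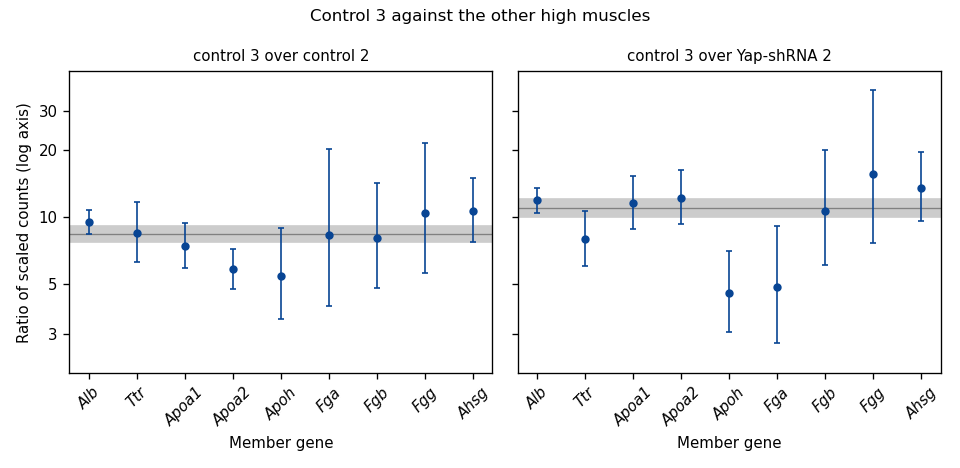
Ratio of scaled counts (log axis) of control 3 over control 2 and over Yap-shRNA 2 for each member, with exact 95% intervals for counting error. The grey line and band are the ratio and interval of the summed members (8.41 and 11.0). Apoa2 in the left panel and Apoh, Fga and Ttr in the right panel have intervals below the line, that of Ttr reaching into the band.

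Other genes of hepatocytes were counted from lists, which were written with earlier results of these data known. Of 88 further plasma proteins made mainly by the liver, 36 were in the table and 34 of these were highest in control 3, with a median log2 excess of 4.32, against 0.01 over all genes. The table holds no gene with fewer than 60 counts in all, so a gene could enter it through control 3 alone. Among the 14 listed genes with at least 50 counts over the other 5 muscles, 12 were highest in control 3. The share was 13.0% among all genes that met this minimum. The order described above was found in 8 of the 14, against 836 of the 13140 genes that met the minimum. Fga, Fgb and Fgg did not meet it, with 23, 35 and 25 counts, and the other 6 members did. Serpina3k, a serine protease inhibitor of plasma, had 5, 71 and 891 counts in control and 28, 69 and 0 in Yap-shRNA muscles, and Apoc1, an apolipoprotein of triglyceride-rich particles, had 3, 43 and 271 counts against 18, 35 and 5. Both followed Alb. Vtn, which encodes vitronectin, did so little, with 504, 446 and 598 counts against 419, 461 and 465. Hp, which encodes haptoglobin and is also made outside the liver, had 262, 57 and 339 counts against 44, 86 and 430, and was highest in Yap-shRNA 3, where Alb had 4 counts.

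Enzymes and transporters that stay inside hepatocytes or on their surface were present too. Of 76 listed genes, 40 were in the table, 34 were highest in control 3, and their median log2 excess was 3.93. Of the 16 with at least 50 counts over the other 5 muscles, 10 were highest in control 3 and 3 had the order of Alb. Of all 13140 genes that met this minimum, 13.0% were highest in control 3 and 836 had this order. Cyp2e1, a cytochrome P450 of the liver, had 38, 29 and 538 counts in control and 46, 63 and 75 in Yap-shRNA muscles, so it was high in control 3 without the lower steps seen for Alb. Adh1, an alcohol dehydrogenase, had 362, 371 and 364 counts against 329, 340 and 238, and Cyp27a1, a sterol hydroxylase, had 1266, 1364 and 1372 against 1228, 1447 and 1069. Neither was set apart in control 3. Of 18 liver-enriched transcription factors, 5 were in the table and none was highest in control 3, where their sum was 25.4 CPM against 24.9 to 37.2 in the other muscles. These were Cebpa, Cebpb, Cebpd, Ppara and Prox1, which many tissues use. The HNF1, HNF4A and FOXA genes were not analysed here. Of 31 plasma proteins that many tissues make, 26 were in the table, with a median log2 excess of -0.18. Of these, 5 were highest in control 3, against 13.4% of all genes. Rbp4, Azgp1 and Trf were the 3 with a log2 excess over 1, at 4.31, 4.22 and 2.02.

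**Figure D4:**
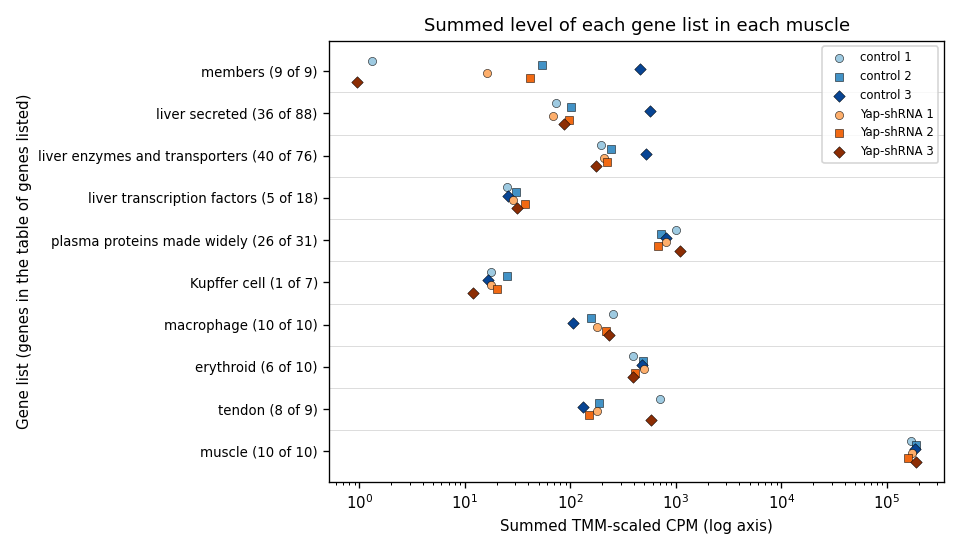
Summed TMM-scaled CPM (log axis) of the members and of 9 gene lists in each of the 6 TA muscles, 1 point per muscle, with the number of listed genes found in the table. The members run from 0.957 to 456.2 CPM, the liver secreted and liver enzyme lists reach 563.2 and 520.9 CPM in control 3, and the liver transcription factors stay between 24.9 and 37.2 CPM.

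The 15 genes outside the members with the largest excess of control 3 were Serpina1e (log2 excess 5.69), Serpina3k (5.62), Mup3 (5.35), Serpina1b, Gc, Ces1c, Fabp1, Hpd, Apob, Mup7, Tat, Cps1, Hpx, Serpina1c and Plg (4.89). They were chosen by this value, and all are hepatocyte genes of the lists. The Serpina1 and Mup genes are near-identical copies whose reads may be split between them, so their single values are uncertain. Gc, the vitamin D carrier of plasma, had 0, 25 and 292 counts in control and 7, 28 and 0 in Yap-shRNA muscles. Fabp1, the fatty acid-binding protein of liver and intestine, had 0, 47 and 328 counts against 8, 35 and 0. Tat, a tyrosine-degrading enzyme, had 0, 4 and 158 counts against 12, 7 and 0, with its second highest value in Yap-shRNA 1 instead of control 2 or Yap-shRNA 2. Of the 100 genes with the largest excess, 9 were members, 33 were on the list of other secreted proteins and 33 on that of enzymes and transporters. A further 3 were on the list of plasma proteins that many tissues make, and 22 were on no list. Of the 100, 49 had the order of Alb in the other 5 muscles, against 6.58% of all genes.

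Among the genes that most closely followed the profile of the members over the 6 muscles were Gc (Pearson r of log2 CPM with the members' mean standardised profile 0.9993), Ambp (0.9991), Fabp1 (0.9967), Serpina1c, Apoc1, Apoc3, Mup20, Mat1a and Apoc4 (0.9913). These correlations are over 6 libraries, of which control 3 sets the top, and are a description. Of the 100 genes with the highest r, 40 were on the liver lists. Without control 3, 21 of the 100 highest were, and 26 genes were shared with the first ranking. The lists of other secreted proteins and of enzymes and transporters hold 36 and 40 of the 13226 genes of the table. Of these, 14 and 16 had at least 50 counts over the 5 muscles besides control 3, so others could enter the table through control 3 alone. Among the members themselves r was lowest for Fga (0.9456) and Apoh (0.9788) and between 0.984 and 0.9978 for the others. Each member is part of the mean profile it was compared with, so a high r is partly built in.

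Markers of other tissues and cells were counted in the same libraries. None of the 20 pancreas acinar, 12 kidney or 7 lung genes had a row in the table used here, which leaves out genes under 60 counts, and 1 of 13 intestine genes, 4 of 15 skin genes and 3 of 9 platelet genes had one, with none highest in control 3. Of the 6 erythroid genes found of 10, which include the haemoglobins, 1 was highest in control 3, and the list summed to 392.4 to 500.0 CPM in all muscles. Of 7 Kupffer cell genes, which mark the macrophages of the liver, Nr1h3 alone was in the table, at 16.6 CPM in control 3 and 12.0 to 25.1 in the others. Of 9 genes of liver endothelial and stellate cells 5 were found, and 1, Reln, was highest in control 3, with 43 counts against 24 to 38. Of 12 lymphocyte genes 2 were found, Ptprc and Ighm, which summed to 53.3, 73.2 and 94.8 CPM in the control group and 38.2, 72.6 and 70.3 in the Yap-shRNA group, with Ighm highest in control 3. Of 10 adipocyte genes 9 were found and 1, Pck1, was highest there, a gene of liver as well. The 10 macrophage genes, all found, summed to 254.8, 155.9 and 104.8 CPM in the control group against 179.7, 218.1 and 231.0 in the Yap-shRNA group, lowest in control 3. The 8 tendon genes found of 9 summed to 712.0, 185.7 and 132.3 CPM in control and 177.9, 150.5 and 584.3 in Yap-shRNA muscles. The muscles richest in tendon genes, control 1 and Yap-shRNA 3, were thus those with the fewest member counts. The part of these other cells in the members' levels was not tested.

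The study compared Yap-shRNA with control muscles, and in all 6 muscles the members' means were lower with Yap-shRNA. Alb stood at 88.1 ± 131.0 CPM in control muscles against 9.41 ± 10.0 CPM after Yap-shRNA (mean ± SD, n = 3 each). The SD of the control group exceeded its mean for every member, from 3.05 against 2.08 CPM for Fga to 131.0 against 88.1 for Alb. The groups overlapped for all 9. The log2 fold changes ran from -3.40 (SE 1.44, Apoa1) to -1.77 (SE 0.95, Apoh), with a median of -3.13 against -0.0029 over all genes. These differences rest on control 3, the muscle the members were chosen by, and are given without a test. By edgeR's quasi-likelihood test, 0.0% of 13226 genes passed an adjusted p of 0.05, so no member did. At an unadjusted p under 0.05 there were 232 genes, and DESeq2 and edgeR's likelihood ratio test each called 5, none of them a member. Yap1, the targeted gene, was not called by the quasi-likelihood test either, at a log2 fold change of -1.10 and an adjusted p of 0.436. DESeq2 and the likelihood ratio test did call Yap1. The lack of calls by the quasi-likelihood test is therefore no result about the members.

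Without control 3, which the selection used, the comparison was tested over 2 control and 3 Yap-shRNA muscles. The 6 members with at least 50 counts had log2 fold changes of -0.44 (SE 1.22) for Alb, -0.038 (SE 1.22) for Ttr, -0.90 (SE 1.31) for Apoa1, -1.10 (SE 1.15) for Apoa2, 0.12 (SE 0.73) for Apoh and -0.16 (SE 1.12) for Ahsg. Each was smaller than its standard error, which was derived from the F statistic of edgeR's test and adds nothing to that test. The adjusted p was 1.00 for all 6, with edgeR's quasi-likelihood test and the Benjamini-Hochberg method over 13140 genes. The test called 0.0% of the genes, hence none of the members, with 126 genes at an unadjusted p under 0.05, and DESeq2 called 3 genes and the likelihood ratio test 5, none of them a member. DESeq2 and the likelihood ratio test again called Yap1, which the quasi-likelihood test did not. The median over the 6 was -0.30, against -0.0052 over all genes tested. Fga, Fgb and Fgg reached the table only through control 3 and were fitted with no count filter, with log2 fold changes of 0.27 (SE 1.53), -0.53 (SE 1.25) and -0.26 (SE 1.22) and an adjusted p of 1.00 each by the same test. The signs depended on single muscles. Without control 2 as well, which leaves control 1 as the lone control muscle, all 6 members were positive, from 1.65 (Apoh, also positive with it) to 7.60 (Apoa1). Without Yap-shRNA 3, Alb stood at 0.13, Ttr at 0.55 and Ahsg at 0.43, and without Yap-shRNA 1, Ttr stood at 0.092. Apoh fell to -0.62 without control 1 and to -0.71 without Yap-shRNA 2. The 2 control muscles themselves stood at 0.545 and 25.2 CPM for Alb. The p-values set the difference between the groups against the modelled spread between these muscles. The muscles came from opposite legs of 3 animals but were treated as unpaired, so they are not all independent animals.

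**Figure D5:**
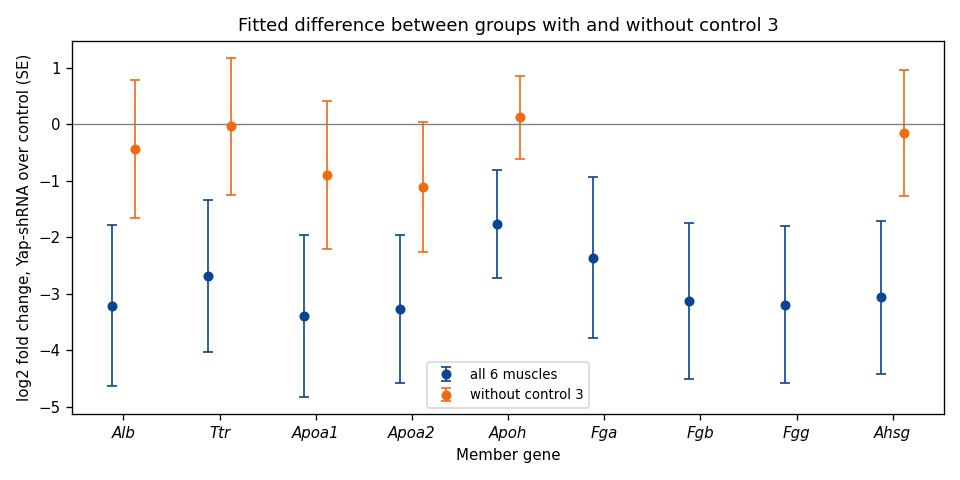
Fitted log2 fold change of Yap-shRNA over control for each member, with a standard error derived from edgeR's F statistic, from all 6 muscles and without control 3. The values from all 6 muscles lie between -3.40 and -1.77, and without control 3 the 6 members tested lie between -1.10 and 0.12, with no value for Fga, Fgb and Fgg.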

How the data were processed

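Polyadenylated RNA of 6 whole TA muscles was sequenced. The deposited values are raw gene-level read counts that the authors did not normalise, and no gene in them has fewer than 60 counts. The submitters' processing notes name bcl2fastq 2.20.0.422 and GRCm38, and the aligner, counter and strand setting are not given in the sources used here. All 6 columns were matched to a sample by name. Overlapping and near-identical genes are therefore uncertain.

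TMM scaling and the quasi-likelihood test of edgeR 4.0.16 in R 4.3.3 were used (a model of group alone, genes with at least 10 counts per library on average, Benjamini-Hochberg over all genes tested, threshold 0.05), once with all 6 muscles and once without control 3. The code was tested on data with known answers. DESeq2 1.42.0 was an alternative, as were edgeR's likelihood ratio test, upper-quartile and RLE factors, other count filters, a replicate block, and each muscle left out. Log2 CPM used a prior count of 2. Exact binomial 95% intervals (scipy 1.17.1) cover counting error only. The excess of the sum is log2 of its CPM in control 3 over the mean CPM of the other 5. CPM per kilobase used the union of exons in GENCODE M21, and exon numbers are those of the principal transcript.

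The members and lists were chosen with earlier results of these data known. The named genes were the members, Yap1, up to 6 genes of each liver list with the most counts, the 15 other genes of largest excess and the 10 of most similar profile, of which 1 is left unreported. Genes given as sole exceptions in a count (Nr1h3, Reln, Ptprc, Ighm, Pck1), Prkca and the other overlapping genes, Prox1, Apoc1 and the genes of the closing section were named after their values were seen. So were Rbp4, Azgp1 and Trf.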

Additional observations from a re-analysis of the deposited data

How the results depend on the processing

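No gene of the table, Yap1 included, passed the threshold by edgeR's quasi-likelihood test under other scaling factors or count filters. With all 6 muscles, DESeq2 and the likelihood ratio test called 5 genes each, and leaving out 1 muscle at a time gave 0 to 1 genes, the 1 without Yap-shRNA 3. Without control 3, DESeq2 called 3, the likelihood ratio test 5, and leaving out a further muscle 0 in each case. Neither tool called a member under any setting run.

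Same-numbered muscles deviated together in 1 of 3 pairs (r across genes -0.065, 0.196 and -0.315), and not every muscle correlated best with its own number (0.383 for control 1 with Yap-shRNA 3, 0.252 for control 3 with Yap-shRNA 2), so the numbers were not used as pairs, and which muscles share an animal is not known. With the replicate block 0 genes were called over 6 muscles and 39 without control 3 (5 higher, 34 lower, no member), on 1 residual degree of freedom. In that fit without control 3, Alb turned to 0.83, Apoa1 to 0.11, Ttr to 0.92 and Ahsg to 0.79, with adjusted p of 1.00.

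Leaving out 1 muscle at a time turned the Apoh value over 6 muscles, which ranged from -2.60 to 0.12 (the latter without control 3). In the fit without control 3, the values ranged from -1.67 to 4.09 for Alb, -2.84 to 7.60 for Apoa1, -2.23 to 3.72 for Apoa2, -0.71 to 1.65 for Apoh, -1.38 to 4.52 for Ttr and -1.11 to 3.30 for Ahsg, the highest each time without control 2, which leaves 1 control muscle assumed to vary like the other group. The cause was not tested. In all, 15 of 66 alternative values of the members turned in this fit, and 1 of 105 over 6 muscles.

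The summed log2 excess of control 3 was 4.32 and lay between 3.07 and 4.93 under 10 alternatives, changes smaller than the spread of the other muscles (SD 2.76), and 6 of 108 values of single members moved, all against the highest of the other 5 muscles. A minimum of 10 counts in every library leaves no member to fit. Depth limits the members most in control 1 and Yap-shRNA 3, with 17 and 12 counts in all.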

Other observations

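Genes on none of the lists were also high in control 3 and were picked after their values were seen. H2-Q10, a secreted class I histocompatibility protein of the liver, had 3, 25 and 162 counts in control and 6, 30 and 10 in Yap-shRNA muscles. Control 2 and Yap-shRNA 2 followed control 3 as for Alb, but Yap-shRNA 3 stood above Yap-shRNA 1, unlike for Alb. Pon1, the paraoxonase of high-density lipoprotein, had 3, 8 and 51 counts against 8, 8 and 3. The excess of Pon1 in control 3 (2.83 on the log2 scale) was smaller than that of each of the 9 plasma protein members.

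Some hepatocyte genes had other ratios between the muscles than the summed members. Hpx, the haem carrier hemopexin, had 16 counts in control 2 and 35 in Yap-shRNA 2, a ratio of 0.498 (exact 95% interval 0.257 to 0.923) against 1.31 for the summed members. Saa1, an acute-phase apolipoprotein, had 4, 1 and 72 counts in control and 0, 19 and 1 in Yap-shRNA muscles, with 1 count in control 2 where Alb had 301. Cyp2f2, a cytochrome P450, had 6 counts in control 2 and 30 in Yap-shRNA 2. For these genes control 2 was the lower of the 2 muscles, whereas the summed members were higher in it. Single members did not all go with the sum. Apoh (0.835), Ttr (0.936) and Fga (0.581) were also lower in control 2, with intervals that include 1, and the remaining members were higher in it.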
